A study of Mus musculus with 12 samples.

Results

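The 10 acute-phase protein genes Saa1, Saa2, Saa3, Saa4, Orm1, Orm2, Hp, Hpx, Apcs and Lcn2 were followed through 12 mouse liver libraries. They were matched by gene symbol, and all 10 were found among the 50600 genes counted. All mice were of the Rosa26-LSL-dCas9-p300 strain, which carries nuclease-dead Cas9 fused to the histone acetyltransferase p300 behind a stop cassette at Rosa26. In the first group of 4 libraries the mice received adeno-associated virus (AAV) carrying a gRNA against Pdx1, named AAV.Cbh.gRNA in the labels, at 1e+12 viral genomes per mouse. In the second group of 4 the same dose of virus carried a control gRNA, and in the last group of 4 the mice received PBS and no virus. Mice were about 8 weeks old at tail-vein injection, and livers were taken 2 weeks later. The fusion is blocked until Cre removes the stop cassette, and where Cre came from is not stated in the labels or file headers used here. The design asks what a guide against Pdx1, a pancreatic transcription factor, switches on in liver. The control gRNA group sets virus with another guide beside it, and the PBS group received no virus.

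Acute-phase proteins are plasma proteins that hepatocytes secrete in changed amounts during infection or injury. Cytokines of the interleukin-6 family signal through gp130 and STAT3, and interleukin-1 and tumour necrosis factor signal through NF-kappa-B, both acting with C/EBP factors on the promoters of these genes. In the mouse, Saa1, Saa2 and Apcs are strongly inducible, Hp and Hpx are abundant at rest, and Saa4 is regarded as largely constitutive.

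The depth was 13531769 to 18063529 assigned counts in the Pdx1 gRNA libraries, 16963079 to 22008046 in the control gRNA libraries and 11824767 to 17870498 in the PBS libraries. Pdx1 had 1.44, 2.36, 3.81 and 15.5 CPM (counts per 1000000, here of total counts) with Pdx1 gRNA, against 0 to 0.118 with control gRNA and 0 in each PBS library. PBS libraries 2 and 3 stood apart: Xist was at 2.61 to 3.64 CPM of total counts there and at 692 to 1347 in the other 10 libraries. The Y-linked Ddx3y was at 70.02 to 80.8 in that pair and at 0 to 0.187 in the other 10, the pattern of male tissue in PBS libraries 2 and 3 and of female tissue in the rest. As to the tissue label, all 9 hepatocyte markers were detected in every group. Changes of the members and list counts against PBS are therefore also given without PBS libraries 2 and 3.

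Levels below are CPM on library sizes scaled by TMM, and changes are log2 fold changes ± SE from edgeR's quasi-likelihood test. A gene was called at a Benjamini-Hochberg adjusted p under 0.05 over 15219 tested genes, and "rose" and "fell" are kept for called genes. All 10 members passed the filter on low counts. After control gRNA, 2 of the 10 were called against PBS: Lcn2 rose and Saa4 fell. The background there was 32.1% of all tested genes, 16.3% higher and 15.8% lower, and 2 of 10 does not exceed it. After Pdx1 gRNA, 3 of the 10 were called against PBS, and Saa1, Saa2 and Saa4 all fell. The background was 22.1%, of which 10.4% was lower. Between Pdx1 gRNA and control gRNA none of the 10 was called, and the background was 0%. edgeR had 2 of the 10 and 918 of all genes (6.03%) at an unadjusted p under 0.05 in that comparison, while DESeq2 called 14 genes and limma-voom 0, with no member among them. On unscaled library sizes the split of all called genes was 4432 higher to 1064 lower for control gRNA over PBS, in place of 2488 to 2399, and 3062 to 705 for Pdx1 gRNA over PBS, in place of 1787 to 1583. With upper-quartile factors it was 3001 to 1854 for control gRNA over PBS. These 2 comparisons share the PBS libraries. The median log2 fold change of the 10 members was -0.41 for control gRNA over PBS, against -0.0072 for all genes. It was -0.68 for Pdx1 gRNA over PBS, against -0.055 for all genes, and -0.14 for Pdx1 gRNA over control gRNA, against -0.0060. Without PBS libraries 2 and 3, only Saa4 stayed called with control gRNA (1 of 10) and no member was called with Pdx1 gRNA (0 of 10), of 2258 and 1277 genes called in all. The share of all genes called lower was then 7.05% with control gRNA and 3.4% with Pdx1 gRNA.

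**Figure D1:**
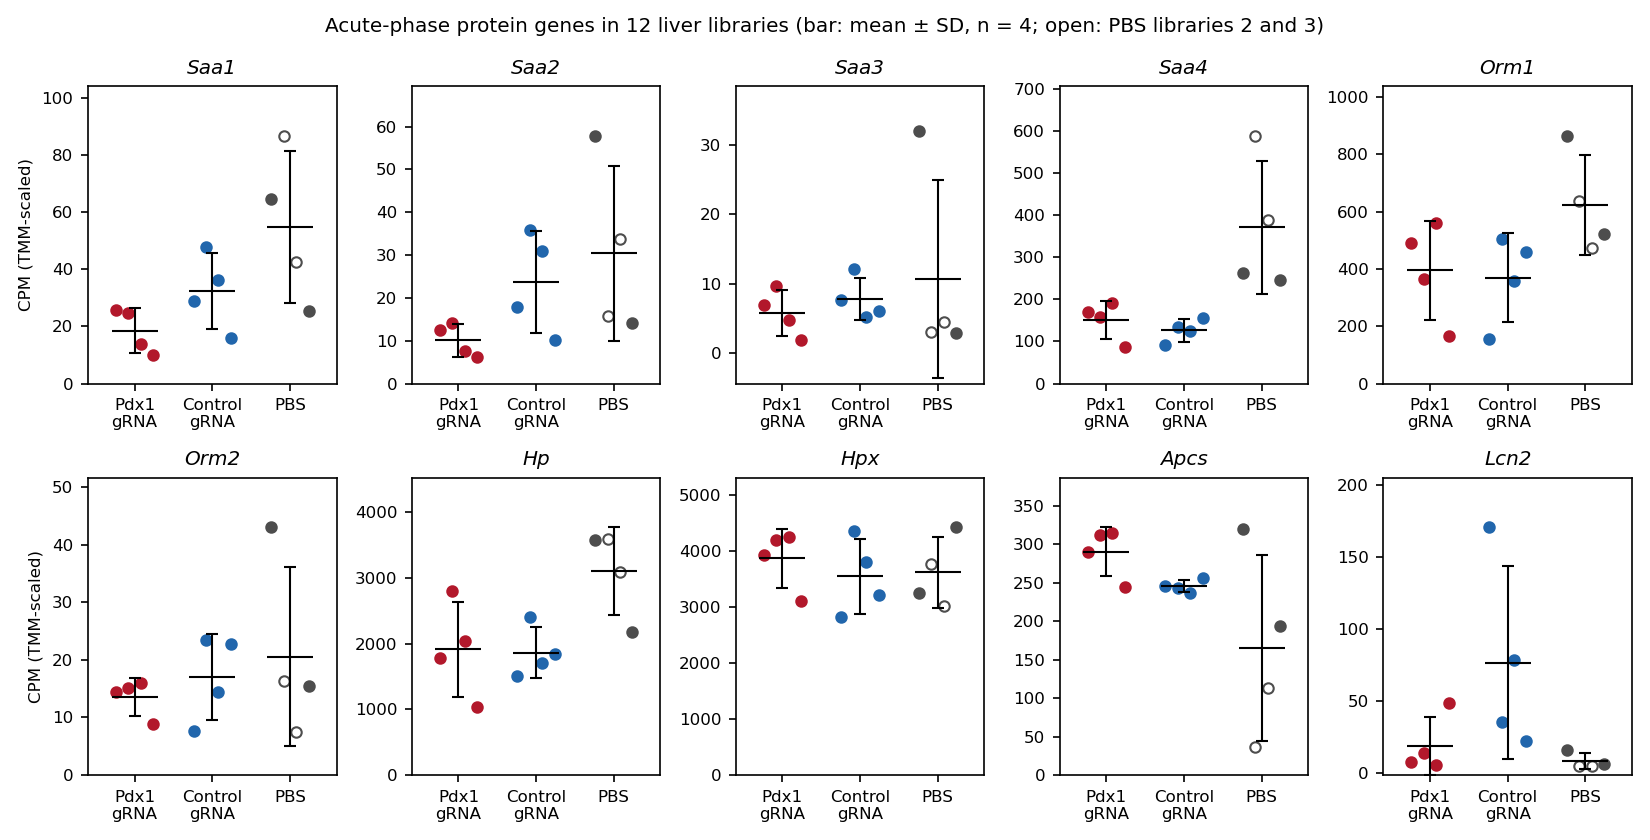
CPM (TMM-scaled, linear axes) of each of the 10 genes in each library, with Pdx1 gRNA, control gRNA and PBS from left to right. Points are libraries 1 to 4 in order within a group, open points are PBS libraries 2 and 3, and bars give mean ± SD over 4 libraries. Saa4 is below every PBS library in both virus groups, and Lcn2 with control gRNA is above every PBS library.

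**Figure D2:**
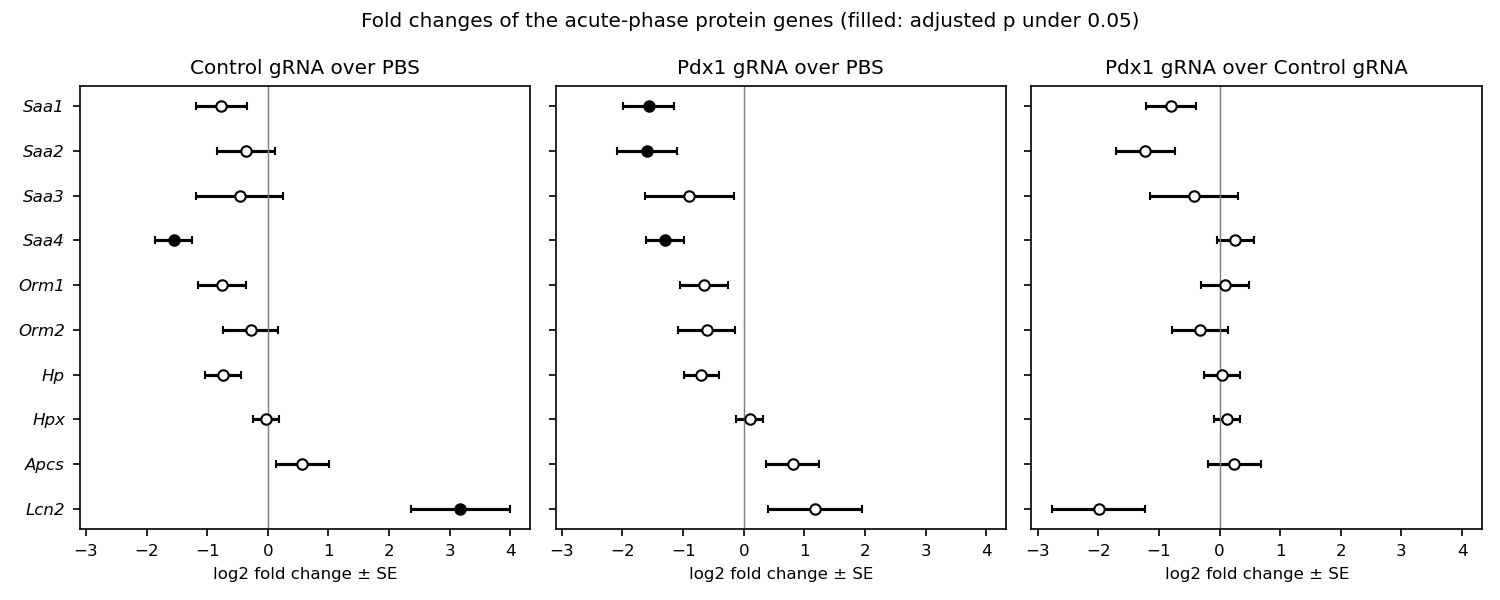
Log2 fold change ± SE (edgeR) of the 10 genes for control gRNA over PBS, Pdx1 gRNA over PBS and Pdx1 gRNA over control gRNA, from left to right. Filled points are called at an adjusted p under 0.05: Saa4 and Lcn2 in the left panel, Saa1, Saa2 and Saa4 in the middle panel and none in the right panel.

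The serum amyloid A genes encode small apolipoproteins carried on high-density lipoprotein. Saa4 encodes the constitutive form and lies on chromosome 7 within the cluster of all 4 genes. Saa4 had 169, 158, 192 and 86.3 CPM with Pdx1 gRNA, 90.5, 134, 125 and 156 CPM with control gRNA and 263, 589, 388 and 246 CPM with PBS. Every virus library lay below every PBS library, and the 2 virus groups overlapped. Saa4 fell by 1.56 ± 0.31 on the log2 scale with control gRNA (adjusted p = 0.00331), a 2.94-fold difference, and by 1.30 ± 0.31 with Pdx1 gRNA (adjusted p = 0.0116), a 2.46-fold difference. Pdx1 gRNA over control gRNA was 0.26 ± 0.31 (adjusted p = 0.907). Libraries did not overlap in that direction for 12.3% and 8.74% of all genes in the comparisons of control gRNA and of Pdx1 gRNA with PBS. Within the PBS group the highest levels were those of libraries 2 and 3. Without that pair the change was -1.03 with control gRNA (adjusted p = 0.0362) and -0.77 with Pdx1 gRNA (adjusted p = 0.111). The exact permutation test of 4 against 4 libraries gave its smallest possible p, 0.0286, two-sided and not adjusted for the number of genes, for both comparisons with PBS.

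Saa1 and Saa2 encode the inducible forms of the mouse acute phase. Saa1 had 25.8, 24.6, 13.8 and 9.91 CPM with Pdx1 gRNA, 28.9, 47.9, 36.4 and 16.1 CPM with control gRNA and 64.6, 87.0, 42.7 and 25.5 CPM with PBS. The lowest PBS library lay within the range of the Pdx1 gRNA group, so the groups overlapped by that library. Saa1 fell by 1.57 ± 0.42 with Pdx1 gRNA relative to PBS (adjusted p = 0.0208), a 2.96-fold difference. The change with control gRNA was -0.76 ± 0.41 (adjusted p = 0.175), and Pdx1 gRNA over control gRNA was -0.80 ± 0.42 (adjusted p = 0.8287). Saa2 had 12.6, 14.2, 7.71 and 6.10 CPM with Pdx1 gRNA, 17.8, 35.9, 30.9 and 10.2 CPM with control gRNA and 57.9, 15.8, 33.8 and 14.1 CPM with PBS. The highest Pdx1 gRNA library exceeded the lowest PBS library by a small margin. The control gRNA libraries ran from below the lowest PBS library to 35.9 CPM, under the highest PBS library at 57.9 CPM. Saa2 fell by 1.59 ± 0.49 with Pdx1 gRNA relative to PBS (adjusted p = 0.0368), a 3.01-fold difference. After control gRNA the change was -0.36 ± 0.48 (adjusted p = 0.597). Pdx1 gRNA over control gRNA was -1.23 ± 0.49, with an unadjusted p of 0.0262 and an adjusted p of 0.809 in edgeR.

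The calls on Saa1 and Saa2 depended on single libraries and on the method. With no filter on low counts the adjusted p was 0.0788 for Saa1 and 0.130 for Saa2. The Saa2 call was also lost on unscaled library sizes (0.0633), in limma-voom (0.0766) and in the 8 libraries compared alone (0.0522). For Saa1 the adjusted p was 0.0621 without PBS library 2, 0.0530 without Pdx1 gRNA library 3 and 0.0564 without Pdx1 gRNA library 4. For Saa2 it was 0.102 without PBS library 1, where the change was -1.06, and 0.0776 without PBS library 3. It was 0.0572, 0.0839 and 0.0987 without Pdx1 gRNA libraries 1, 3 and 4. Without PBS libraries 2 and 3 the changes were -1.29 for Saa1 (adjusted p = 0.108) and -1.84 for Saa2 (adjusted p = 0.0664) with Pdx1 gRNA, and -0.498 for Saa1 and -0.62 for Saa2 with control gRNA, neither called.

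The Saa1 and Saa2 transcripts are 93.9% identical over 609 aligned columns. These are the main transcripts, of 609 and 606 bases, and they share no stretch of 100 bases exactly. Reads were counted over 2478 and 2518 bases of exon, so this does not cover all of the counted sequence. The split of reads between the 2 genes was not tested. Added together, their counts fell by 1.57 ± 0.42 with Pdx1 gRNA relative to PBS (adjusted p = 0.0186). The sum changed by -0.61 with control gRNA (adjusted p = 0.272) and by -0.97 for Pdx1 gRNA over control gRNA (adjusted p = 0.809). The count ratio of Saa1 to Saa2 ran from 1.12 to 2.05 in 11 libraries and was 5.51 in PBS library 2, one of the 2 libraries with the male pattern. PBS library 3, the other of them, lay inside the range of the 11.

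**Figure D3:**
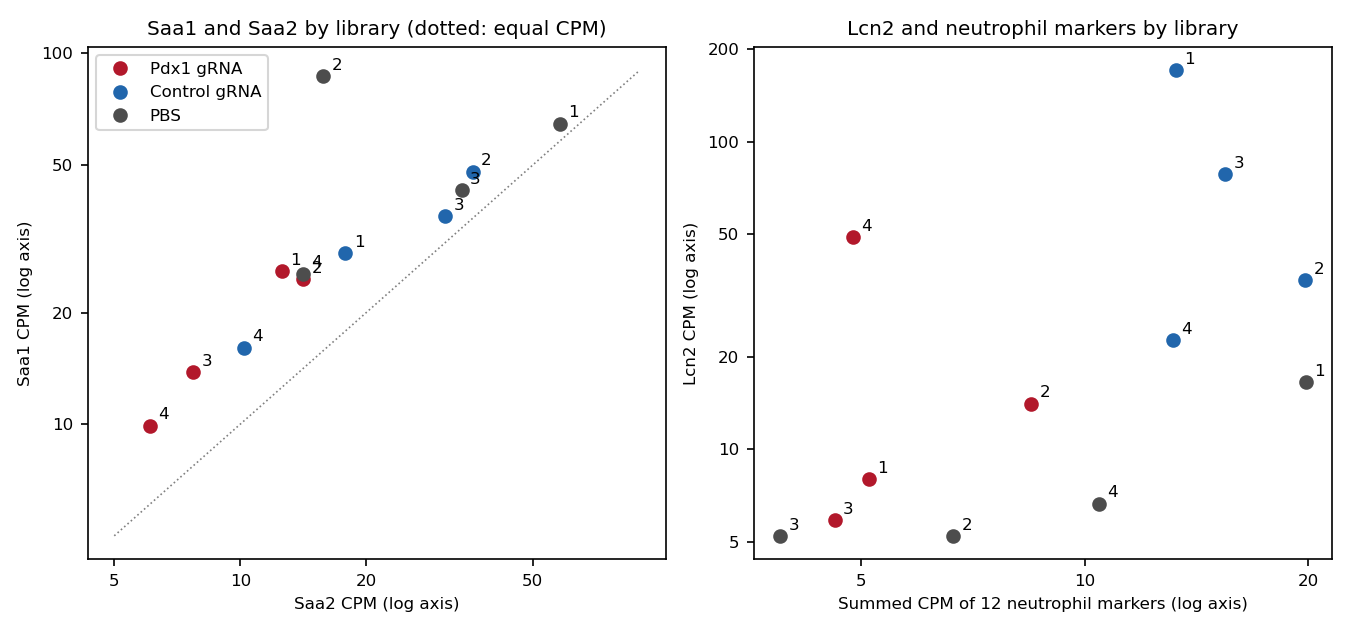
Left, Saa1 against Saa2 in CPM for each library on log axes, with the replicate number beside each point and a dotted line at equal CPM; PBS library 2 lies far above the others. Right, Lcn2 CPM against the summed CPM of 12 neutrophil markers on log axes. Control gRNA libraries lie above every PBS library in Lcn2, but PBS library 1 has the highest marker sum. Within the control gRNA group, library 1 has the highest Lcn2, at 13.3 CPM of markers. Library 2 has that group's highest marker sum, 19.8 CPM, at 35.5 CPM of Lcn2. Pdx1 gRNA library 4 has high Lcn2 at a low marker sum.

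The promoters of Saa1, Saa2 and Saa4 are shown because these are the 3 members that fell. They come from RefSeq on GRCm38.p6 and run 5′ to 3′ along the gene up to the transcription start, with capitals for the letters TTNNGNAA, a C/EBP-type motif, on either strand. For Saa1 the window is chr7:46742981-46743230 (minus strand), for Saa2 chr7:46751583-46751789 (plus strand), without its last 43 bases, which another annotation places in an exon, and for Saa4 chr7:46732604-46732853 (minus strand).
Saa1: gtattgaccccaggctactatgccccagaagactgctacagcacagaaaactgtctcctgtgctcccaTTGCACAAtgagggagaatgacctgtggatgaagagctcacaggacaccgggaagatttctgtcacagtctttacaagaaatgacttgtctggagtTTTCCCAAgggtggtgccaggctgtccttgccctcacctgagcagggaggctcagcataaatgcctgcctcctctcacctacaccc
Saa2: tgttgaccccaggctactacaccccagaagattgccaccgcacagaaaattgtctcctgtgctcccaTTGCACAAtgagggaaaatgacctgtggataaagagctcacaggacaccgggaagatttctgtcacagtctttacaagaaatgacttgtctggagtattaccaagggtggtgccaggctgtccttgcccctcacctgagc
Saa4: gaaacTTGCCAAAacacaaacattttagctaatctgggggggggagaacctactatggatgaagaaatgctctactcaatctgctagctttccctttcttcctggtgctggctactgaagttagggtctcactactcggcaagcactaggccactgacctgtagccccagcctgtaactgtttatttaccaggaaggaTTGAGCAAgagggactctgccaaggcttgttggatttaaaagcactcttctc
Over the full 250 bases the Saa1 and Saa2 promoters matched at 238 of 251 aligned columns (94.8%), and Saa4 matched them at 42.3% and 43.2%. Saa1 and Saa2 hold the same motif letters, TTGCACAA, at -182 to -175 and at -183 to -176 from the start. Saa1 has a second match at -86 to -79, where Saa2 has none, and Saa4 has matches at -245 to -238 and -52 to -45. This motif is in 36.8% of 32851 mouse promoter windows of that length, so a match is a description only. Of the 8 member promoters in the RefSeq table, 7 hold it. None of the 8 holds the NF-kappa-B consensus, which is in 7.25% of all windows.

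Saa3 encodes the form made mainly outside hepatocytes, by macrophages and adipocytes among others. It had 6.94, 9.66, 4.83 and 1.88 CPM with Pdx1 gRNA, 7.72, 12.1, 5.30 and 6.15 CPM with control gRNA and 32.1, 3.14, 4.51 and 2.93 CPM with PBS. PBS library 1 was above every other library and the remaining PBS libraries were among the lowest. The change was -0.90 ± 0.73 with Pdx1 gRNA (adjusted p = 0.404) and -0.47 ± 0.72 with control gRNA (adjusted p = 0.657). Without PBS library 1 the sign turned, to 0.72 (adjusted p = 0.261) and 1.151 (adjusted p = 0.0681). With PBS libraries 2 and 3 left out, which keeps library 1 as 1 of 2, it was -1.61 (adjusted p = 0.180) and -1.18 (adjusted p = 0.288). The 13 macrophage and monocyte markers summed to 273 to 765 CPM with Pdx1 gRNA, 344 to 1110 CPM with control gRNA and 214 to 914 CPM with PBS, with 304 CPM in PBS library 1. Of these 13 markers 2, Cd68 and Ccr2, rose with control gRNA relative to PBS, where 16.3% of all genes rose. That count is near the background. None was called with Pdx1 gRNA, where 22.1% of all genes were called. Neither comparison had a called one without PBS libraries 2 and 3. Of 16170 genes tested then, 2258 were called with control gRNA and 1277 with Pdx1 gRNA. No marker of that list was at 0 in any group, and the part of these cells in Saa3 was not tested.

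Lcn2 encodes lipocalin-2, which binds bacterial siderophores and is made by hepatocytes in the acute phase and stored by neutrophils. It had 7.97, 14.1, 5.89 and 48.9 CPM with Pdx1 gRNA, 171, 35.5, 78.5 and 22.6 CPM with control gRNA and 16.5, 5.23, 5.23 and 6.65 CPM with PBS. Every control gRNA library was above every PBS library, as for 16.5% of all genes, with a spread of 7.56-fold inside the control gRNA group. Among the Pdx1 gRNA libraries, library 4 was high and the other 3 lay in the PBS range. Lcn2 rose by 3.17 ± 0.82 with control gRNA relative to PBS (adjusted p = 0.0133), a 9.02-fold difference. After Pdx1 gRNA the change was 1.18 ± 0.78 (adjusted p = 0.300), and it was 0.11 without Pdx1 gRNA library 4 and 0.74 without PBS libraries 2 and 3. Pdx1 gRNA over control gRNA was -1.99 ± 0.77, with an unadjusted p of 0.0246 and an adjusted p of 0.809 in edgeR.

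The Lcn2 rise rested in part on single libraries. It was 2.397 without control gRNA library 1, a 5.27-fold difference, and stayed called, and it was 3.74 without PBS library 1. Without PBS libraries 2 and 3 it was 2.71 (adjusted p = 0.111), which ends the call. The 12 neutrophil markers summed to 4.61 to 8.48 CPM with Pdx1 gRNA, 13.1 to 19.8 CPM with control gRNA and 3.89 to 19.8 CPM with PBS. Of these markers, 5 passed the filter and none was called in any comparison of all 12 libraries, and Ly6g was at 0 in every Pdx1 gRNA library. Without PBS libraries 2 and 3, 7 markers passed the filter. Then 1 of the 7 fell with Pdx1 gRNA relative to PBS, where 3.4% of all genes were lower. With control gRNA 0 were called, where 2258 of 16170 genes were called. In CPM, S100a9 averaged 0.794 ± 0.501 with Pdx1 gRNA and 3.06 ± 0.896 with control gRNA (SD, n = 4 each), with an edgeR adjusted p of 0.809. PBS library 1, with the highest Lcn2 of its group, had 19.8 CPM of these markers, whereas Pdx1 gRNA library 4, with the highest Lcn2 of its own, had 4.88 CPM. In bulk liver, more cells of a type and more RNA per cell cannot be told apart, and the part of neutrophils in Lcn2 was not tested.

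Hp encodes haptoglobin, which binds free haemoglobin, and Hpx encodes hemopexin, which binds free haem. Hp had 1783, 2793, 2033 and 1042 CPM with Pdx1 gRNA, 1505, 2405, 1702 and 1836 CPM with control gRNA and 3574, 3591, 3084 and 2169 CPM with PBS. PBS library 4 was the only PBS library inside the range of the virus libraries. The change was -0.70 ± 0.29 with Pdx1 gRNA (adjusted p = 0.106) and -0.74 ± 0.29 with control gRNA (adjusted p = 0.0710), neither of them called. The Hp difference was called by DESeq2's Wald test in both comparisons (adjusted p = 0.0411 and 0.0216), and for control gRNA over PBS also without PBS library 4 (0.0497), without Pdx1 gRNA library 4, which shares the estimate of the spread (0.0283), and in the 8 libraries compared alone (0.0466). The Hp change without PBS libraries 2 and 3 was -0.60 with Pdx1 gRNA and -0.64 with control gRNA. Hpx ran from 3105 to 4262 CPM with Pdx1 gRNA, from 2829.7 to 4365 CPM with control gRNA and from 3020.5 to 4433 CPM with PBS. The 3 groups of Hpx covered one another. Its change was 0.097 ± 0.22 with Pdx1 gRNA (adjusted p = 0.782) and -0.026 ± 0.22 with control gRNA (adjusted p = 0.940), and both signs turned under some alternatives. It was -0.0061 and -0.14 without PBS libraries 2 and 3.

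Orm1 and Orm2 encode orosomucoids, or alpha-1-acid glycoproteins, which carry drugs and lipids in plasma. Orm1 had 490.2, 366, 561 and 165 CPM with Pdx1 gRNA, 156, 505, 358 and 460.1 CPM with control gRNA and 866, 636, 472 and 523 CPM with PBS. In both virus groups a single library, number 4 with Pdx1 gRNA and number 1 with control gRNA, lay far below the other 3. Orm1 changed by -0.66 ± 0.40 with Pdx1 gRNA (adjusted p = 0.252) and by -0.75 ± 0.40 with control gRNA (adjusted p = 0.162), so neither was called. With PBS libraries 2 and 3 left out these were -0.83 and -0.93, not called. Orm2 ran from 8.79 to 15.9 CPM with Pdx1 gRNA, from 7.69 to 23.4 CPM with control gRNA and from 7.48 to 43.0 CPM with PBS, with PBS library 1 highest. Its change was -0.61 ± 0.46 with Pdx1 gRNA (adjusted p = 0.367) and -0.28 ± 0.46 with control gRNA (adjusted p = 0.673), and without PBS library 1 it was 0.044 and 0.37. Leaving out PBS libraries 2 and 3 instead gave -1.13 (adjusted p = 0.134) and -0.80 (adjusted p = 0.238). The 2 transcripts are 91.0% identical, and 6.95% of their 100-base windows are shared, so single counts are uncertain. The count ratio of Orm1 to Orm2 ran from 18.7 to 63.0. Summed with their neighbour Orm3, the orosomucoid counts changed by -0.66 with Pdx1 gRNA (adjusted p = 0.254) and by -0.73 with control gRNA (adjusted p = 0.178).

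Apcs encodes serum amyloid P, the pentraxin that takes the acute-phase part in mice that C-reactive protein takes in humans. Apcs had 290.3, 312, 314 and 245 CPM with Pdx1 gRNA, 245, 243, 237 and 256 CPM with control gRNA and 319.5, 36.5, 113 and 193 CPM with PBS. The control gRNA libraries lay within 1.08-fold of each other, whereas the PBS libraries spanned 8.76-fold and covered both virus groups. The lowest PBS values were those of libraries 2 and 3, the pair with the male pattern. The change was 0.81 ± 0.44 with Pdx1 gRNA (adjusted p = 0.204) and 0.57 ± 0.44 with control gRNA (adjusted p = 0.345). Without PBS libraries 2 and 3 it was 0.17 and -0.084. Without PBS library 1 it was 1.34 (adjusted p = 0.0227) and 1.10 (adjusted p = 0.0411). The Apcs promoter is shown because it alone of the 8 member promoters in the RefSeq table holds the letters TTCNNNGAA, a STAT-type motif found in 7.02% of all windows, at -244 to -236. It runs along chr1:172895055-172895304 (GRCm38.p6, minus strand), and capitals mark this motif and the letters CTGGGA on the opposite strand, an interleukin-6 response core found in 27.0% of windows.
Apcs: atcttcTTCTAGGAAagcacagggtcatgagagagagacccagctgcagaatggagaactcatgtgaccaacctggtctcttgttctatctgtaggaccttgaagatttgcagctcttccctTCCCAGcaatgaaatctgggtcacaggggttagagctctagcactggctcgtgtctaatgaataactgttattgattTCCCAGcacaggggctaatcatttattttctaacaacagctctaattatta

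The order of levels between genes was read per kilobase of exon length. Hpx was highest in all 3 groups, at 2584 ± 355 CPM per kilobase with Pdx1 gRNA, 2372 ± 448 with control gRNA and 2416 ± 418 with PBS (SD, n = 4 each). Hp came next, at 1191 ± 450, 1159 ± 241 and 1933 ± 415, and its libraries overlapped with those of Hpx only with PBS. Orm1 ranked 3 in each group, and its libraries overlapped with those of Hp with Pdx1 gRNA and with those of Apcs in both virus groups. Saa4 and Apcs followed: Apcs stood above Saa4 without overlap in both virus groups, at 299 ± 32.9 against 72.2 ± 21.8 with Pdx1 gRNA. After PBS the Apcs and Saa4 libraries overlapped. The last 5 places were held by Orm2, Saa1, Saa2, Saa3 and Lcn2, and most neighbours among these overlapped. Lcn2 ranked 8 with Pdx1 gRNA, 6 with control gRNA and 10 with PBS. The counted exon length exceeds that of the main transcript for some members (2478 against 609 bases for Saa1, 2623 against 915 for Lcn2). With the main transcript's length instead, Lcn2 ranked 7, 5 and 10 in the same order of groups. All 10 genes together took 0.561 to 0.792% of unscaled total counts with Pdx1 gRNA, 0.616 to 0.791% with control gRNA and 0.592 to 0.793% with PBS. On the TMM scale they summed to 4718 to 7900, 5060 to 7807 and 7170 to 8759 CPM in the same order. Hpx and Hp had the highest mean CPM in each group and weigh most in these sums. Saa1 to Saa3 took 0.00213 to 0.00486%, 0.00345 to 0.00973% and 0.00369 to 0.0144% of total counts.

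In each group a single library held many of the members' extremes. Pdx1 gRNA library 4 had the lowest CPM of its group in 9 of the 10 genes and the highest in the remaining one, Lcn2. It also had the highest Pdx1 of the 12 libraries. Its 9 hepatocyte markers summed to 49634 CPM, against 79988 to 102273 CPM in the other Pdx1 gRNA libraries, and its macrophage and monocyte markers to 765 CPM, against 273 to 438 CPM. The part of these markers in the members' levels was not tested. On CPM of total counts it was the lowest in 8 of 10. PBS library 1 was the highest of its group in 6 of 10, and control gRNA library 2 in 7 of 10. These libraries were picked after their values were seen, and the part of any shared factor was not tested.

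Likeness of pattern was measured as the root mean square difference of log2(CPM + 1) profiles over the 12 libraries, each centred on its own mean. Between members, the closest pairs were Hp with Orm1 (0.430), Hp with Saa4 (0.453) and Orm1 with Orm2 (0.4927). Lcn2 was the farthest from its nearest member, Apcs, at 1.44. The measure grows with a gene's own spread, its distance from a flat profile, which was 1.52 for Lcn2 and 0.510 for Hp. Outside the members, Ido2 (0.200) and Tsc22d3 (0.218) were among the nearest to Saa4. Lrg1, which encodes a leucine-rich acute-phase glycoprotein, was nearest to Saa1 (0.470). Nearest to Lcn2 were Ncam1 (0.502), Lpl (0.576) and Ahnak2 (0.607), and nearest to Hp was Eci2 (0.188). All profiles share the group differences and the libraries' scaling.

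Other positive acute-phase genes, whose products rise in inflammation, were mostly lower after virus than with PBS. Of the 21 listed, all tested, 11 fell and 0 rose with Pdx1 gRNA, against 10.4% of all genes lower, and 12 fell and 1 rose with control gRNA, against 15.8% lower. Leaving out PBS libraries 2 and 3, 4 fell with Pdx1 gRNA (3.4% of all genes) and 8 fell with control gRNA (7.05%), and none rose. On unscaled library sizes, which moved the median of all genes to 0.22 for Pdx1 gRNA and 0.34 for control gRNA over PBS, 7 fell and 1 rose in each, where 4.63% of all genes were lower with Pdx1 gRNA and 6.99% with control gRNA. The fibrinogen gene Fga, which encodes the alpha chain of the clotting protein, averaged 2186 ± 700 CPM with Pdx1 gRNA, 1516 ± 119 CPM with control gRNA and 4479 ± 637 CPM with PBS. Its change was -1.03 ± 0.25 with Pdx1 gRNA (adjusted p = 0.0119) and -1.56 ± 0.25 with control gRNA (adjusted p = 0.00109). Fgb, the beta chain, fell by 1.36 ± 0.24 with control gRNA, and Serpina3m, a serine protease inhibitor, fell by 1.81 ± 0.27. The gene that rose with control gRNA was Cd14, an endotoxin co-receptor, at 14.4 ± 7.50 CPM with control gRNA and 3.96 ± 2.13 CPM with PBS (adjusted p = 0.0164); it is named because it was the exception. Serpina3m was higher with Pdx1 gRNA than with control gRNA by 0.84 ± 0.26, but was not called (adjusted p = 0.809). The median change of the list was -0.83 for Pdx1 gRNA over PBS and -0.76 for control gRNA over PBS.

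Negative acute-phase genes, whose products drop in inflammation, showed 0 of 7 called with Pdx1 gRNA and 1 of 7 lower with control gRNA, where 15.8% of all genes were lower, so the count is near the background. That gene was Apoa1, the main protein of high-density lipoprotein and the carrier that serum amyloid A displaces. Apoa1 fell by 1.23 ± 0.40 with control gRNA (adjusted p = 0.0314), at 4471 ± 1176 CPM with control gRNA and 10495 ± 5051 CPM with PBS. The Apoa1 call was lost without PBS libraries 2 and 3 (-1.53, adjusted p = 0.0522), on unscaled library sizes (-0.92, adjusted p = 0.0638), without PBS library 1 (-0.84, adjusted p = 0.0710) and without control gRNA library 1, 3 or 4. Alb, encoding albumin, changed by -0.62 ± 0.31 with control gRNA (adjusted p = 0.138). Among the 9 hepatocyte markers, which include Alb and Apoa1, 2 fell with Pdx1 gRNA (10.4% of all genes) and 6 with control gRNA (15.8%). Without PBS libraries 2 and 3, 1 fell in each, against 3.4% of all genes with Pdx1 gRNA and 7.05% with control gRNA. G6pc, the last enzyme of glucose release, fell by 2.18 ± 0.38 with Pdx1 gRNA and by 2.12 ± 0.38 with control gRNA. The other marker that fell with Pdx1 gRNA, named after its value was seen, was the cytochrome gene Cyp2e1, which fell by 1.68 ± 0.51. The part of a change in hepatocyte RNA in the lower acute-phase genes was not tested.

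Among the cytokines that induce these genes, 5 of 10 passed the filter and only Clcf1, a ligand of the interleukin-6 family, was called. Of all genes, 11.7% were higher with Pdx1 gRNA than with PBS and 16.3% with control gRNA, so 1 of 5 is near the background. Clcf1 averaged 17.1 ± 5.75 CPM with Pdx1 gRNA, 19.8 ± 6.42 CPM with control gRNA and 2.57 ± 1.44 CPM with PBS. It rose by 2.69 ± 0.39 with Pdx1 gRNA (adjusted p = 0.000921) and by 2.90 ± 0.39 with control gRNA (adjusted p = 0.000426). Clcf1 stayed the only cytokine called in each comparison without PBS libraries 2 and 3. Tnf, encoding tumour necrosis factor, averaged 0.344 ± 0.220 CPM with Pdx1 gRNA, 0.683 ± 0.280 CPM with control gRNA and 0.281 ± 0.396 CPM with PBS, and was not called. Il22 was at 0 in every library.

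Of the 8 receptors for these cytokines, 3 fell with Pdx1 gRNA (10.4% of all genes), 4 fell with control gRNA (15.8%) and none rose. Il1rap, the shared accessory chain of the interleukin-1 receptor, averaged 59.2 ± 24.8 CPM with Pdx1 gRNA, 44.5 ± 13.0 CPM with control gRNA and 162 ± 43.6 CPM with PBS. It fell by 1.45 ± 0.34 with Pdx1 gRNA (adjusted p = 0.00990) and by 1.86 ± 0.34 with control gRNA (adjusted p = 0.00201). Il6st, which encodes gp130, fell by 0.72 ± 0.21 with Pdx1 gRNA (adjusted p = 0.0286) and by 0.94 ± 0.21 with control gRNA (adjusted p = 0.00606). Lifr, the receptor chain for leukaemia inhibitory factor, fell by 1.93 ± 0.43 with control gRNA and changed by -1.24 ± 0.42 with Pdx1 gRNA (adjusted p = 0.0511). The other receptors called, named after their values were seen, were Osmr with Pdx1 gRNA and Il6ra with control gRNA. With PBS libraries 2 and 3 left out, 1 receptor fell with Pdx1 gRNA (3.4% of all genes) and 4 fell with control gRNA (7.05%). On unscaled library sizes 1 fell and 1 rose with Pdx1 gRNA, and 2 fell and 1 rose with control gRNA. Called lower there were 4.63% of all genes with Pdx1 gRNA and 6.99% with control gRNA. Called higher were 3062 of 15219 genes with Pdx1 gRNA and 4432 with control gRNA.

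Of the 14 signal transducers and transcription factors, 3 fell and 1 rose with Pdx1 gRNA, and 5 fell with control gRNA. All genes were called at 22.1% and 32.1%, so the counts in both directions together are near the background. Called lower were 10.4% and 15.8% of all genes, smaller shares than in this list. Nr3c1, the glucocorticoid receptor, averaged 74.3 ± 4.84 CPM with Pdx1 gRNA, 60.0 ± 5.88 CPM with control gRNA and 114 ± 10.3 CPM with PBS. Every virus library lay below every PBS library, as for 8.74% of all genes with Pdx1 gRNA and 12.3% with control gRNA. Nr3c1 fell by 0.61 ± 0.12 with Pdx1 gRNA (adjusted p = 0.00442) and by 0.92 ± 0.12 with control gRNA (adjusted p = 0.000388). Stat3, the transducer of gp130, fell by 0.57 ± 0.17 with Pdx1 gRNA (adjusted p = 0.0273) and by 0.71 ± 0.17 with control gRNA (adjusted p = 0.00699). Socs3, a feedback target of STAT3 also in this list, averaged 9.03 ± 2.39 CPM with Pdx1 gRNA, 7.84 ± 0.988 CPM with control gRNA and 9.33 ± 8.61 CPM with PBS, and was not called. Others called, named after their values were seen, were Cebpd, which fell, and Rela, which rose, with Pdx1 gRNA, and Cebpa and Jak2, which fell, with control gRNA. With PBS libraries 2 and 3 left out, 1 member of the list fell in each comparison with PBS. The share of all genes lower was then 3.4% with Pdx1 gRNA and 7.05% with control gRNA. On unscaled library sizes the list had 1 lower and 2 higher with control gRNA, and 1 lower and 1 higher with Pdx1 gRNA. Of all 15219 genes, 1064 were then lower and 4432 higher with control gRNA, and 705 lower and 3062 higher with Pdx1 gRNA. The list medians there were -0.045 with control gRNA and -0.0033 with Pdx1 gRNA, against 0.34 and 0.22 for all genes.

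Of 11 receptors and binding partners of the proteins, 2 rose and 1 fell with Pdx1 gRNA, and 3 rose and 2 fell with control gRNA. These counts too are near the 22.1% and 32.1% of all genes called. Tlr2, a receptor that binds serum amyloid A, averaged 15.9 ± 10.0 CPM with Pdx1 gRNA, 12.2 ± 5.63 CPM with control gRNA and 2.96 ± 1.27 CPM with PBS. It rose by 2.396 ± 0.49 with Pdx1 gRNA (adjusted p = 0.00578) and by 2.01 ± 0.49 with control gRNA (adjusted p = 0.00862). Hmox1, the haem-degrading enzyme downstream of haptoglobin and hemopexin uptake, rose by 1.09 ± 0.33 with Pdx1 gRNA (adjusted p = 0.0318) and by 1.25 ± 0.33 with control gRNA (adjusted p = 0.0127). Lrp1, the receptor that takes up haem bound to hemopexin, fell by 1.13 ± 0.25 with Pdx1 gRNA (adjusted p = 0.00755) and by 1.403 ± 0.25 with control gRNA (adjusted p = 0.00176). The others called with control gRNA, named after their values were seen, were Fpr2, which rose, and Lrp2, which fell. Leaving out PBS libraries 2 and 3, none of the 11 was called with Pdx1 gRNA and 1 fell with control gRNA. Of the 16170 genes tested then, 1277 were called with Pdx1 gRNA and 2258 with control gRNA. The share lower with control gRNA was 7.05%. Between the virus groups, none of these 6 lists had a called member.

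Of the list genes named, those called under each of 24 alternatives to the edgeR fit were Fga, Fgb, Serpina3m, Clcf1, Il1rap, Lifr, Nr3c1, Lrp1 and G6pc for control gRNA over PBS, and Clcf1, Nr3c1 and G6pc for Pdx1 gRNA over PBS. The other named calls were each lost under at least 1 alternative. The number lost ran from 1, as for Tlr2 with Pdx1 gRNA, to 18 for Jak2 with control gRNA. It was 17 for Cebpd with Pdx1 gRNA and 11 for Cebpa with control gRNA. Without PBS libraries 2 and 3, Tlr2 was at 1.97 with Pdx1 gRNA (adjusted p = 0.0719) and 1.56 with control gRNA (adjusted p = 0.103), and Hmox1 at 0.87 (adjusted p = 0.190) and 1.01 (adjusted p = 0.117). Cd14 was at 1.31 with control gRNA (adjusted p = 0.158), and Cyp2e1 at -1.13 with Pdx1 gRNA (adjusted p = 0.225). With Pdx1 gRNA, Fga was at -1.07 (adjusted p = 0.0571), Il1rap at -1.09 (adjusted p = 0.0936) and Lrp1 at -0.90 (adjusted p = 0.0771). On unscaled library sizes, Il6st was at -0.41 with Pdx1 gRNA (adjusted p = 0.234) and -0.57 with control gRNA (adjusted p = 0.0820), and Stat3 at -0.28 (adjusted p = 0.303) and -0.34 (adjusted p = 0.171).

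**Figure D4:**
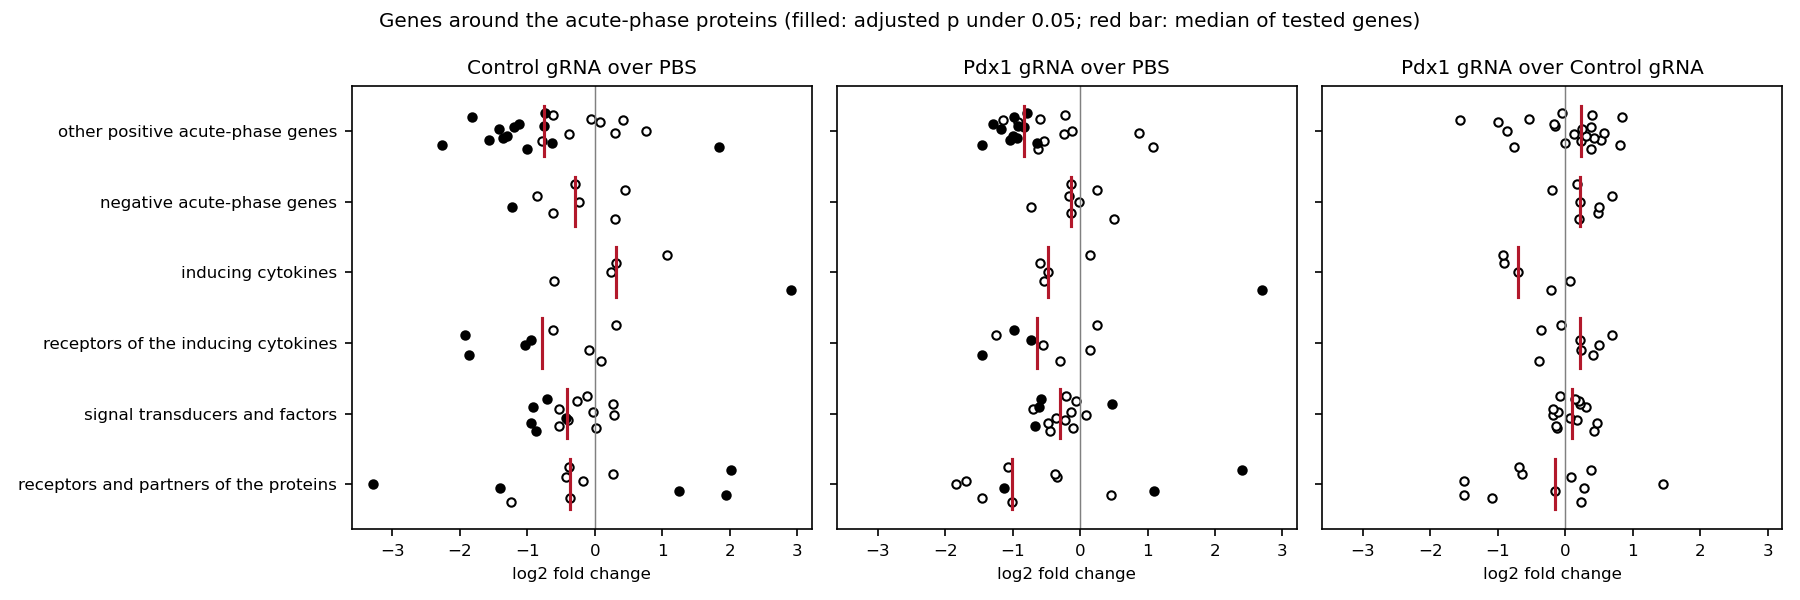
Log2 fold change of each tested gene in 6 lists around the acute-phase proteins, for control gRNA over PBS, Pdx1 gRNA over PBS and Pdx1 gRNA over control gRNA, from left to right. Filled points are called (edgeR adjusted p under 0.05) and red bars are list medians; the medians of the other positive acute-phase genes are -0.76, -0.83 and 0.23.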

How the data were processed

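Polyadenylated liver RNA was measured in 12 libraries, 3 groups of 4. Whether each library is a separate mouse is not stated, so p-values measure only the spread between these samples. The deposited values are unnormalized fragment counts per gene in a file for each library. According to the headers, the authors counted pairs with both ends mapped, ignoring strand, over GENCODE M13 exons (featureCounts 1.4.6-p4). Exon length per gene, the other column used, is in bases per the file headers. Per the submitters' processing notes, Trimmomatic 0.32, STAR 2.4.1a, DESeq2 1.22.0 and R 3.5.1 were used, with GRCm38 and mm10. Genes were matched to symbols by ID (50376 of 50600).

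Genes were filtered with filterByExpr (minimum count 10) and scaled by TMM, and a single edgeR 4.0.16 model held all 12 libraries (robust quasi-likelihood, two-sided, R 4.3.3), with Benjamini-Hochberg adjustment over 15219 genes. SE is the log2 fold change divided by the square root of F. The alternatives were DESeq2 1.42.0, limma-voom (limma 3.58.1), 3 scalings, 2 filters, no robust estimation, the 8 libraries compared alone, a replicate block, each library left out, PBS libraries 2 and 3 left out or given a covariate, summed paralogs and an exact permutation of log2(CPM + 1) over 70 assignments. The alternatives of the summed paralogs were added after seeing the data. The methods were tested on simulated data.

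The 10 members, the gene lists and the doubt about PBS libraries 2 and 3 were chosen with earlier results of these data known. Named genes were all members, up to 3 genes of each list with the smallest p for control gRNA over PBS and up to 2 for Pdx1 gRNA over control gRNA, and up to 3 genes nearest to each member in likeness. Some of the genes this rule names are not reported here. The profiles for likeness used log2(CPM + 1). Overlapping and antisense genes cannot be told apart without strand. The replicate numbers did not pair the libraries: 3 of 12 same-numbered pairs correlated above 0.1. Transcripts were aligned with Biopython 1.88.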

Additional observations from a re-analysis of the deposited data

Results flagged for a closer look

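Among 30 sets of 4 libraries (10 genes in 3 groups), 2 had a library far from the other 3 by Dixon's criterion, which chance alone gives in about 1 of 20 sets (5%). Both were PBS library 1. Saa3 stood at 32.1 CPM there and at 2.93 to 4.51 CPM in the other PBS libraries, and the gap took 0.946 of the whole range. Lcn2 stood at 16.5 CPM there and at 5.23 to 6.65 CPM in the other PBS libraries, and the gap took 0.874 of the range. The same library had the highest summed neutrophil markers of its group, 19.8 CPM, and their part in these values was not tested.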

How the results depend on the processing

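Of 762 results for single members under an alternative, 700 kept their direction and their side of the threshold, 26 lost a call, 8 gained one and 28 changed sign. Leaving out PBS libraries 2 and 3 left 2258 genes called for control gRNA over PBS and 1277 for Pdx1 gRNA over PBS, and a covariate for them left 2785 and 1795. Under either, 1 member was called with control gRNA and 0 with Pdx1 gRNA, and Saa1 plus Saa2 with Pdx1 gRNA changed by -1.51 and -1.50, no longer called. Apcs with control gRNA changed sign (-0.084 and -0.064), as did Hpx with Pdx1 gRNA when they were left out (-0.0061). The 8 libraries compared alone gave 2017 genes for Pdx1 gRNA over PBS and 1 for Pdx1 gRNA over control gRNA, where DESeq2 called 14. With no filter, 1 member was called for Pdx1 gRNA over PBS.

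Sign changes of uncalled values were as follows, and the cause was not tested. Saa3 with control gRNA was 0.13 (limma-voom), 0.11 (replicate block) and 0.20 (permutation). Hpx with control gRNA was 0.083 (upper quartile), 0.32 (library sizes) and 0.016 (no filter). Hp for Pdx1 gRNA over control gRNA was -0.021 (upper quartile), -0.056 (library sizes), -0.014 (limma-voom), -0.030 (replicate block) and -0.025 (permutation). Orm2 there was -0.33, and its sum with Orm1 and Orm3, counted as an alternative for Orm2, was 0.072. In counts Orm1 was 18.7 to 63.0 times Orm2, and Orm1 alone was 0.096, so the sum says little about Orm2. That sum was -0.012 on library sizes.

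With 1 library left out at a time, genes called ran from 3445 to 6875 for control gRNA over PBS, from 2132 to 5421 for Pdx1 gRNA over PBS and from 0 to 1 for Pdx1 gRNA over control gRNA. The members called were 2 to 3, 1 to 3 and 0 to 0 in these comparisons. For control gRNA over PBS, Saa2 ran from -0.63 to 0.16, Saa3 from -0.78 to 1.151, Orm2 from -0.56 to 0.37 and Hpx from -0.14 to 0.085. For Pdx1 gRNA over PBS, Saa3 ran from -1.25 to 0.72, Orm2 from -0.88 to 0.044 and Saa1 plus Saa2 from -1.81 to -1.35. For Pdx1 gRNA over control gRNA, Orm1 ran from -0.15 to 0.36, Hp from -0.19 to 0.24 and the orosomucoid sum from -0.17 to 0.33.

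The replicate number as a block gave 4127 genes called for control gRNA over PBS, 2553 for Pdx1 gRNA over PBS and 0 for Pdx1 gRNA over control gRNA. It changed 1 call among the members, Saa1 with control gRNA (adjusted p = 0.0212). The closest library of another group had the same number for 2 of the 12 libraries. Among the members, Lcn2 and Saa3, which lie at a few CPM in most PBS libraries, had the widest SE against PBS (0.82 and 0.72 for control gRNA). With 4 against 4 libraries the exact test cannot go below 0.0286.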
